A study of Mus musculus with 22 samples.

Results

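The difference between 2 sorted macrophage subsets of injured mouse muscle was compared between day 1 and day 4 after injury. The comparison used 12 of the 22 arrays of the study, 3 in each of 4 groups. In C57B6/J mice the tibialis anterior muscle was injected with cardiotoxin, which destroys muscle fibres, so that every group comes from regenerating muscle and no uninjured muscle enters the comparison. Leukocytes carrying CD45 were enriched on magnetic beads at days 1 and 4 and sorted with antibodies to Gr1 and Cx3cr1. The groups are Gr1+/Cx3cr1low and Gr1-/Cx3cr1high cells of day 1 and of day 4, called Gr1-positive and Gr1-negative cells here. The protocol also names the sorted cells Ly6C+ F4/80low and Ly6C- F4/80high. The labels call the arrays of a group biological replicates; the age and sex of the mice and whether animals were pooled are not given in the sources used here. RNA was measured on Affymetrix arrays as log2 signal. A gene's subset difference is its log2 signal in Gr1-negative cells minus that in Gr1-positive cells. The shift is the difference of day 4 minus that of day 1, so that a positive shift is a move toward the Gr1-negative cells and a negative shift a move toward the Gr1-positive cells.

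After muscle injury, monocytes with high Ly6C and Gr1 enter the tissue, engulf dead fibres and drive inflammation. They then turn into macrophages with low Ly6C and high Cx3cr1, the receptor of fractalkine, which accompany the fusion and growth of new fibres. Dendritic cells, plasmacytoid dendritic cells, T cells and natural killer cells also carry CD45 and enter injured muscle, and some of them carry Ly6C or Cx3cr1, so that their genes were followed beside those of macrophages. Subset differences come from bulk RNA, in which fewer cells of a type and less RNA per cell cannot be told apart.

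Median signals of the 12 arrays lay between 7.04 and 7.18, and precision is limited by 3 arrays a group. Macrophage genes stood at high and similar levels on all 12 arrays: Lyz2, the lysozyme of myeloid cells, ranged from 12.90 to 13.18, Cd68 from 12.62 to 12.99 and Csf1r, the receptor of the macrophage growth factor, from 11.84 to 12.43. Of the 5 sort markers 3 were measured and none had a called shift. Cx3cr1 had 8.38, 8.30 and 8.89 in the Gr1-negative and 7.77, 8.06 and 8.35 in the Gr1-positive cells of day 1, and 11.01, 10.44 and 10.97 against 10.75, 10.08 and 10.78 at day 4. The subset difference of Cx3cr1 was thus smaller than its rise in both subsets, and its shift was -0.19 ± 0.14 (limma adjusted p = 0.7). The shift was 0.22 ± 0.20 for Ly6g, whose protein Gr1 antibodies bind (adjusted p = 0.777), and 0.03 ± 0.13 for Adgre1, the gene of F4/80 (adjusted p = 0.966). At day 1 the subset difference was called for Cx3cr1 (0.46, limma adjusted p = 0.0195) and Ly6g (-0.70, 0.0139). At day 4 it was called for none of the 3: Cx3cr1 0.27 (limma adjusted p = 0.16), Ly6g -0.49 (0.0814) and Adgre1 0.13 (0.452). Ly6c1 and Ly6c2 were not analysed here.

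The limma fit paired the arrays of a day by replicate number. A gene was called at an adjusted p under 0.05 over 19938 genes, and values after ± are SE. In all 175 genes had a called shift, 0.878% of those tested: 71 moved toward the Gr1-negative cells (0.356%) and 104 toward the Gr1-positive cells (0.522%). The subset difference appeared in 96 of them, being called at day 4 and not at day 1. It vanished in 49, called at day 1 and not at day 4, and reversed in 22, called at both days with opposite signs. Of the other 8, the difference grew in Il12b, shrank in Cd209a and Mgl2, and was called at neither day in 5. Of the 71 genes 54 appeared, 9 vanished and 6 reversed, with a median shift of 0.96 and a range of 0.61 to 2.45. Of the 104 genes 42 appeared, 40 vanished and 16 reversed, with a median shift of -1.15 and sizes of 0.57 to 3.64. The median shift of all genes was -0.04, and 41.5% of the genes had a positive shift.

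**Figure D1:**
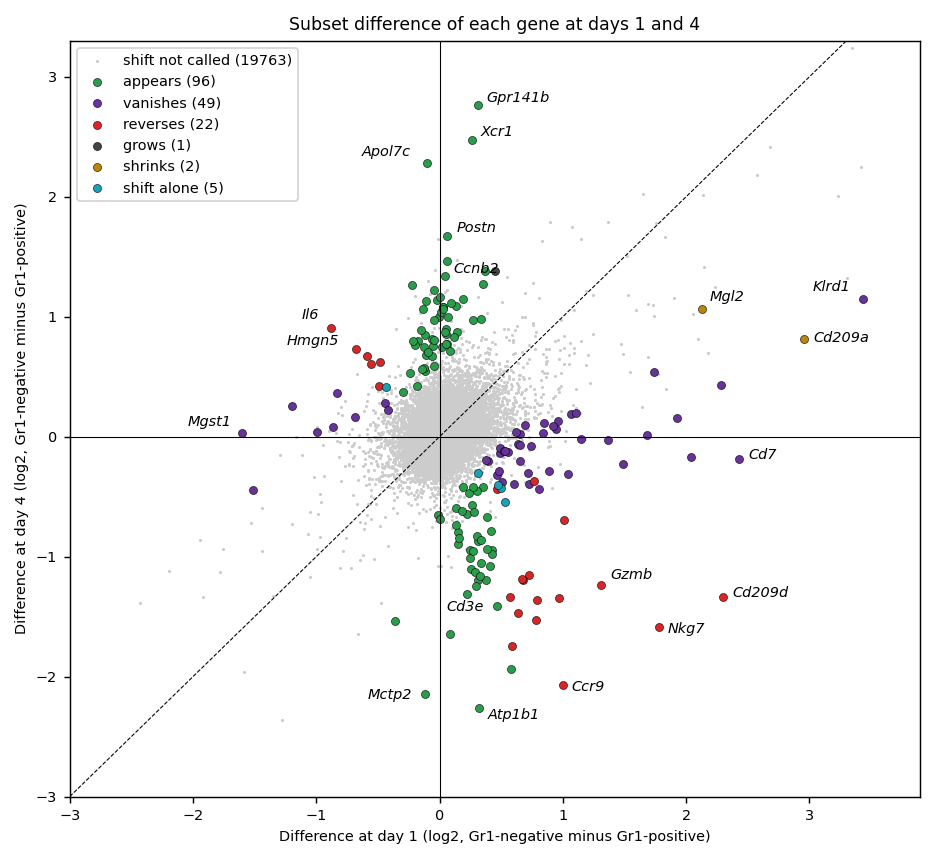
Subset difference of each of 19938 genes at day 1 (horizontal axis, log2) and at day 4 (vertical axis, log2), Gr1-negative minus Gr1-positive. Grey points are genes without a called shift, coloured points the 175 called genes by class, and the dashed diagonal marks no shift: appearing genes lie along the vertical axis, vanishing genes along the horizontal axis and reversing genes at the upper left and lower right.

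The pairing decides how many genes pass. Without it 19 genes had a called shift (0.0953%), 7 higher and 12 lower, all of them among the 175, so both adjusted p-values are given below where the unpaired value ends the call. The count was 101 without the day 1 arrays numbered 2, 97 without the day 4 arrays numbered 1 and 90 without the day 4 arrays numbered 2. It was 353 without the day 1 arrays numbered 3, with 200 genes higher and 153 lower. At the threshold, Cdca3 and Il15 stood just inside (adjusted p = 0.0492 and 0.0498) and Axl and Ptp4a3 just outside (0.0503 and 0.0504).

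Among the 28 gene lists followed, genes of mitosis held the most differences that appeared. They run the late cell cycle: cyclin B and its kinase start mitosis, kinesins move chromosomes and part the daughter cells, and kinetochore proteins tie chromosomes to the spindle. Of 24 measured genes of mitosis and the spindle 13 had a called shift toward the Gr1-negative cells and none the other way, and all 13 appeared. The list's median shift was 0.71 against -0.04 over all genes, all 24 shifts were positive, and in 23 the 3 paired differences of day 4 lay above the 3 of day 1, as in 5.89% of all genes. Without the pairing limma called none of the 24, although 20 had an unadjusted p under 0.05 (5.83% of all genes), and with the pair as a random term it called 4 (0.456% of all genes). The 13 became 4 without the day 1 arrays numbered 2 or the day 4 arrays numbered 1, 6 without the day 1 arrays numbered 1, and 7 without the day 4 arrays numbered 2 or 3. At day 1 the Gr1-negative cells had the higher level in 2 of 24 (3% of all genes) and the lower level in none (0.747%). At day 4 they had the higher level in all 24 (2.62% of all genes). Many of the 24 had low signal at day 1. The Gr1-negative mean lay above the median of all values for 9 of them at day 1 and for 23 at day 4. For the Gr1-positive mean the counts were 8 and 17. Whether low signal hid differences at day 1 was not tested.

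Cenpe, a kinesin that moves chromosomes to the spindle equator, had 5.66, 5.67 and 5.57 in Gr1-negative and 5.78, 5.63 and 5.61 in Gr1-positive cells of day 1, in replicates 1, 2 and 3. At day 4 it had 8.23, 7.54 and 7.63 against 7.03, 6.38 and 6.30. The subsets overlapped at day 1, and at day 4 every Gr1-negative array lay above every Gr1-positive array. The shift was 1.27 ± 0.12 (adjusted p = 0.000506, and 0.194 without the pairing). Ccnb2, a cyclin that starts mitosis, went from 7.12, 7.55 and 7.28 against 7.22, 7.45 and 7.15 at day 1 to 10.65, 10.37 and 10.01 against 9.33, 8.65 and 9.04 at day 4. Its levels rose in both subsets and more in the Gr1-negative cells, with a shift of 1.30 ± 0.24 (adjusted p = 0.0261, and 0.376 without the pairing). Kif20a and Kif23, kinesins of the last step of cell division, shifted by 1.06 ± 0.16 (adjusted p = 0.00596) and 1.00 ± 0.18 (adjusted p = 0.0202), with unpaired values of 0.208 and 0.214. Ccnb2 lost its call without the day 1 arrays numbered 1 or 2 and the day 4 arrays numbered 1 or 2, and Kif23 without the day 1 arrays numbered 2 and the day 4 arrays numbered 1 or 2.

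Promoters of genes that act in mitosis often hold a CCAAT box and the element TTTGAA, where complexes bind that switch these genes on and off during the cell cycle. The promoters of 3 called genes are shown because the genes shifted together, from RefSeq on GRCm38.p6, 250 bases before to 50 after the start of the transcript, 5′ to 3′. Capitals mark CCAAT and TTTGAA on either strand, which read ATTGG and TTCAAA on the other strand.
Ccnb2, chr9:70421505-70421804, reverse strand: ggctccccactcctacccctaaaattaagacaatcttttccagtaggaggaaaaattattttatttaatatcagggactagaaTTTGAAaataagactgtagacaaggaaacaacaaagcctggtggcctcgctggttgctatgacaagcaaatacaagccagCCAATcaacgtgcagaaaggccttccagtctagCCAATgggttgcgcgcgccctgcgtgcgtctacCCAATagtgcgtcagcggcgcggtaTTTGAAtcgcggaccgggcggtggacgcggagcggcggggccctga
Kif23, chr9:61946750-61947049, reverse strand: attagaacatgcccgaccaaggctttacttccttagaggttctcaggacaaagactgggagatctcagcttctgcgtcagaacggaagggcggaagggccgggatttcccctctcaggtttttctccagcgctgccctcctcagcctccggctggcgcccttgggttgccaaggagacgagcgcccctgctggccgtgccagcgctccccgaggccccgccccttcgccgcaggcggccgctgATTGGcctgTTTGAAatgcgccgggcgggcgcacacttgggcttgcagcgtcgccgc
Cenpe, chr3:135212313-135212612, forward strand: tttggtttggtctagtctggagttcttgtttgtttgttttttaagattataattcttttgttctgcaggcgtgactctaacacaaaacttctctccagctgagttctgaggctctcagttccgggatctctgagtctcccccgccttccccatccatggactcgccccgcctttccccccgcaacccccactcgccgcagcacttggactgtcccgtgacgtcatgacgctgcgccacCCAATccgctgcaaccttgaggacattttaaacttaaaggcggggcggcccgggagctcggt
Counted from the start of the transcript, as 0, to the first base of the motif, the Ccnb2 promoter holds CCAAT at -87, -54 and -21 and TTTGAA at -167 and 4. The Kif23 promoter holds 1 CCAAT at -7 and 1 TTTGAA at 2, and that of Cenpe holds 1 CCAAT at -12 and no TTTGAA in this window. Of the 13 called genes 11 had promoters in the table, 12 in all, of which 11 hold CCAAT (91.7%), 9 hold TTTGAA (75%) and 9 both. Prc1 has 2 of the 12, which overlap and hold the same CCAAT and TTTGAA, so that these sites count for both. Of 9 promoters of the other mitosis genes, 6 hold CCAAT (66.7%), 7 hold TTTGAA (77.8%) and 5 both (55.6%). Among all 32851 promoters of this length the shares were 37.4%, 17.9% and 6.95%. A match shows the letters only, and binding was not measured.

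Genes of DNA synthesis act earlier in the cell cycle. Of 22 measured genes of DNA replication and the entry into it, none shifted toward the Gr1-negative cells and 1 shifted toward the Gr1-positive cells, with a list median of -0.06. That gene was Mcm2, a subunit of the replication helicase, whose difference was 0.64 at day 1 and -0.06 at day 4 (shift -0.70 ± 0.13, adjusted p = 0.0248, and 0.267 without the pairing). It kept its call only without the day 1 arrays numbered 3 or the day 4 arrays numbered 1, among the 6 fits that left out the arrays of 1 day and number. The Gr1-negative cells had the higher level in 17 of the 22 at day 2, against 8 at day 1 and 6 at day 4. Of all genes 3% were higher at day 1 and 2.62% at day 4. For the mitosis genes the count went from 2 at day 1 to 14 at day 2 and 24 at day 4, and 9.76% of all genes were higher at day 2.

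The summed linear signal of the 24 mitosis genes, which adds the antilogs of their values, was 2643, 3003 and 3048 in Gr1-negative and 2651, 2794 and 2627 in Gr1-positive cells of day 1. At day 4 it was 12281, 9221 and 8953 against 6465, 5077 and 4888. Fibroblast genes moved the same way: 2 of 12 shifted toward the Gr1-negative cells, none the other way, and the list median was 0.60. Their summed signal ranged from 1507 to 2068 and from 1762 to 2075 at day 1, and from 2726 to 9874 in Gr1-negative and 2529 to 4832 in Gr1-positive cells of day 4, with the highest values on the arrays numbered 1. Postn, a matrix protein of fibroblasts, had 10.52, 9.85 and 7.90 against 8.81, 7.59 and 6.85 at day 4. The groups overlapped, and the shift was 1.61 ± 0.30 (adjusted p = 0.0248, and 0.978 without the pairing), lost without the day 1 arrays numbered 1 or 3 and the day 4 arrays numbered 1 or 2. Fap, a protease of activated fibroblasts, shifted by 0.87 ± 0.12 (adjusted p = 0.00353, and 0.721 without the pairing). Of the 12 fibroblast genes 9 had a mean above the median of all values in each subset at day 4, and the part of fibroblast RNA in the mitosis result was not tested.

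**Figure D2:**
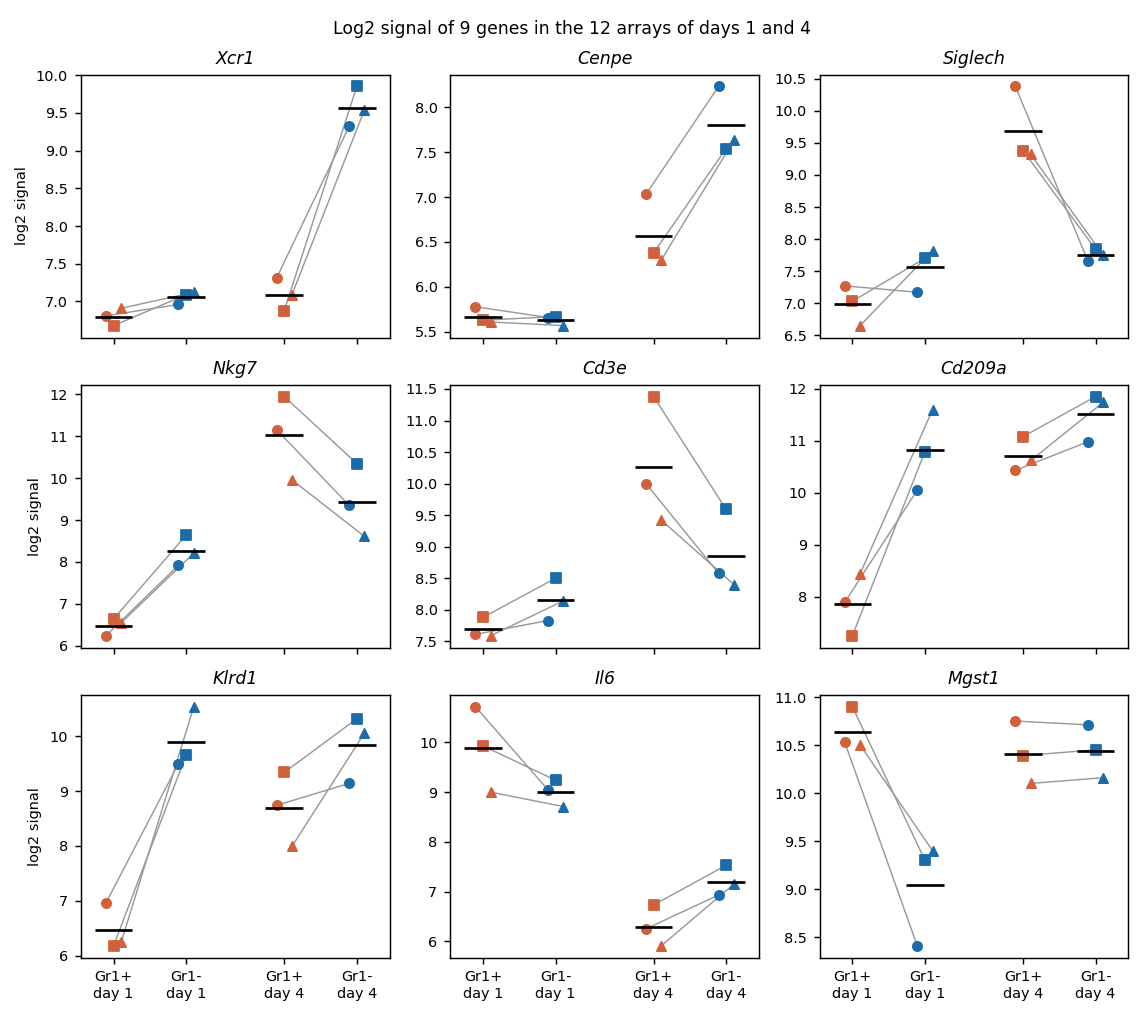
Log2 signal (vertical axis) of 9 genes in Gr1-positive (orange) and Gr1-negative (blue) cells of days 1 and 4. Circles, squares and triangles are replicates 1, 2 and 3, grey lines join arrays of the same number and day, and black bars are group means of 3 arrays: Xcr1 and Cenpe differ most at day 4, Nkg7 changes sides, and Mgst1 and Klrd1 differ most at day 1.

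The largest differences that appeared toward the Gr1-negative cells included genes known from dendritic cells. Gpr141b, an orphan receptor gene, had 6.45, 7.12 and 7.01 in Gr1-negative and 6.57, 6.87 and 6.21 in Gr1-positive cells of day 1. Its day 4 values were 9.27, 9.30 and 9.11 against 6.76, 6.33 and 6.31. Only the Gr1-negative arrays of day 4 stood apart, with a shift of 2.45 ± 0.30 (adjusted p = 0.00178). Xcr1, a chemokine receptor that marks cross-presenting dendritic cells, had 6.96, 7.09 and 7.12 against 6.81, 6.68 and 6.91 at day 1 and 9.32, 9.85 and 9.54 against 7.31, 6.88 and 7.09 at day 4. Its shift was 2.21 ± 0.22 (adjusted p = 0.000517, and 0.000591 without the pairing). Apol7c, an apolipoprotein L gene of dendritic cells, had 8.18, 9.02 and 9.18 against 7.12, 6.36 and 6.06 at day 4, after 5.88, 5.52 and 5.66 against 6.02, 5.72 and 5.62. The replicate 1 pair differed least, and the shift was 2.38 ± 0.37 (adjusted p = 0.00871, and 0.0527 without the day 4 arrays numbered 2). H2-M2, a nonclassical class I histocompatibility gene, shifted by 1.40 ± 0.24 (adjusted p = 0.0136, and 0.0733 without the day 4 arrays numbered 2).

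Of 13 genes of cross-presenting dendritic cells 3 shifted toward the Gr1-negative cells and none the other way, with a list median of 0.22. Beside Xcr1 these were Itgae, the integrin chain CD103 (0.65 ± 0.13, adjusted p = 0.0432), and Snx22, a sorting nexin (0.63 ± 0.12, adjusted p = 0.0255), with unpaired values of 0.522 and 0.196. Itgae lost its call in each of the 6 fits that left out the arrays of 1 day and number, and Snx22 in 4 of them, those without the day 1 arrays numbered 2 and without each number of day 4. The subset difference was called for 3 of the 13 at day 1 and 8 at day 4 (3.75% and 3.53% of all genes). Of 18 genes of mature, migrating dendritic cells 3 had a called shift toward the Gr1-negative cells and none the other way: Apol7c, Il15 and Il12b. The list median was 0.34, and 5 of the 18 shifts were negative, the lowest -1.28. The day 4 pair differences lay above those of day 1 in 6 genes and below them in 2 (5.89% and 9.22% of all genes). Il12b, a subunit of interleukins 12 and 23, is the 1 gene whose difference grew, from 7.09, 7.07 and 7.12 against 6.57, 6.59 and 6.75 to 7.99, 8.53 and 8.56 against 6.88, 6.84 and 7.23. The subsets did not overlap on either day, and the shift was 0.93 ± 0.15 (adjusted p = 0.0103, and 0.443 without the pairing). Il15, a cytokine that sustains natural killer and memory T cells, was lower in Gr1-negative cells at day 1 (-0.87) and near equal at day 4 (0.08), with a shift of 0.94 ± 0.20 (adjusted p = 0.0498, and 0.358 without the pairing). It lost its call in 5 of the 6 fits that left out the arrays of 1 day and number, all but that without the day 1 arrays numbered 3.

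Toward the Gr1-positive cells, differences appeared or reversed in genes of plasmacytoid dendritic cells, which make type I interferon. Of 18 measured genes 5 had a called shift to that side and none to the other, 4 appearing and 1 reversing, and all 5 were called also without the pairing. The list median was -0.48, and in 13 of 18 the 3 paired differences of day 4 lay below the 3 of day 1, as in 9.22% of all genes. Siglech, a lectin of plasmacytoid dendritic cells, had 7.17, 7.70 and 7.82 in Gr1-negative and 7.27, 7.03 and 6.65 in Gr1-positive cells of day 1. At day 4 it had 7.66, 7.84 and 7.75 against 10.38, 9.38 and 9.32. Only the Gr1-positive arrays of day 4 stood apart, and the shift was -2.52 ± 0.33 (adjusted p = 0.00282, and 0.00167 without the pairing).

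Ccr9, a homing receptor of these cells and of gut T cells, reversed. It had 7.28, 8.01 and 8.30 against 6.96, 6.85 and 6.77 at day 1 and 7.04, 7.58 and 6.95 against 9.46, 9.76 and 8.56 at day 4. The subsets did not overlap on either day and changed places, with a shift of -3.07 ± 0.27 (adjusted p = 0.000328, and 0.00365 without the pairing). Atp1b1, a subunit of the sodium pump, had 7.41, 7.46 and 7.15 against 10.27, 9.58 and 8.98 at day 4, after overlapping values of 6.40 to 7.17 at day 1. Its shift was -2.58 ± 0.26 (adjusted p = 0.000506). Ly6d, a surface protein of lymphoid and plasmacytoid precursors, shifted by -1.73 ± 0.22 (adjusted p = 0.00258). The summed signal of the 18 genes was 8006 to 10496 in Gr1-negative and 8791 to 11444 in Gr1-positive cells of day 1, and 13668 to 15772 against 19313 to 21120 at day 4. It overlapped at day 1 and not at day 4.

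T cell genes showed the same direction. Their list holds genes of the receptor complex and its signalling, of transcription factors and of other T cell surface proteins. Of its 18 measured genes 11 shifted toward the Gr1-positive cells and none the other way: 7 appeared, 2 reversed and 2 were called at neither day. The median was -1.07, all 18 shifts were negative, and 16 had day 4 pair differences below those of day 1 (9.22% of all genes). At day 1 the Gr1-negative cells had the higher level in 2 of the 18 (3% of all genes), and at day 4 the lower level in 13 (0.913%). Without the pairing the shift was called for 1, Cd8b1. Cd8b1, a chain of the coreceptor of cytotoxic T cells, had 7.07, 7.73 and 7.03 against 6.55, 6.83 and 6.68 at day 1 and 8.07, 8.75 and 7.49 against 9.99, 10.42 and 9.13 at day 4. The subsets changed places without overlap, with a shift of -2.33 ± 0.15 (adjusted p = 1.33e-05, and 0.0342 without the pairing).

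Cd3e, a signalling chain of the T cell receptor, had 7.83, 8.50 and 8.14 against 7.61, 7.88 and 7.59 at day 1 and 8.58, 9.59 and 8.40 against 9.996, 11.38 and 9.42 at day 4. At day 4 replicate 2 was highest in both subsets and the subsets overlapped, but the Gr1-positive array was the higher of each pair. The shift was -1.87 ± 0.18 (adjusted p = 0.000506, and 0.395 without the pairing). Cd3g, another such chain, and Cd8a, the partner of Cd8b1, shifted by -2.31 ± 0.25 (adjusted p = 0.000773) and -1.57 ± 0.18 (adjusted p = 0.001), with unpaired values of 0.317 and 0.269. The summed signal of the 18 genes was 7021, 7686 and 7338 against 6734, 6213 and 6452 at day 1. At day 4 it was 6879, 8744 and 6983 against 11428, 17578 and 8397, so that the replicate 2 pair was highest in both subsets.

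Genes of cytotoxic granules and natural killer cells moved to the same side, and most of those called changed sides. Of 14 measured 7 shifted toward the Gr1-positive cells, 4 reversing and 3 appearing, and none the other way. Without the pairing 1 of the 7 was called, Nkg7, and with the pair as a random term 4 were. The median was -1.39, and 10 had day 4 pair differences below those of day 1, as in 9.22% of all genes. The Gr1-negative cells had the higher level in 5 of the 14 at day 1 and the lower level in 9 at day 4 (3% and 0.913% of all genes). Nkg7, a granule membrane protein, had 7.92, 8.64 and 8.21 against 6.24, 6.64 and 6.55 at day 1. At day 4 it had 9.35, 10.35 and 8.61 against 11.16, 11.95 and 9.96. It rose in both subsets, led by 3.43-fold in the Gr1-negative cells of day 1 and by 3.01-fold in the Gr1-positive cells of day 4. The shift was -3.37 ± 0.18 (adjusted p = 3.03e-06, and 0.0276 without the pairing).

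Gzmb, a granule protease that kills target cells, had 7.27, 8.14 and 7.23 against 6.35, 6.41 and 5.96 at day 1 and 8.30, 9.71 and 7.88 against 9.71, 11.25 and 8.64 at day 4. Day 4 values overlapped between the subsets, and within each pair the Gr1-positive array was higher. The shift was -2.54 ± 0.23 (adjusted p = 0.000328, and 0.292 without the pairing). Ctsw, a protease of cytotoxic cells, and Il2rb, a chain of the interleukin 2 and 15 receptors, reversed with shifts of -1.91 ± 0.19 (adjusted p = 0.000517) and -1.87 ± 0.20 (adjusted p = 0.000773), and unpaired values of 0.196 and 0.315. The summed signal of the 14 genes was 3454 to 4621 against 1736 to 2643 at day 1 and 5797, 9826 and 6002 against 10955, 19435 and 6314 at day 4. The replicate 3 pair of day 4 was nearly level. Without it 11 of the 14 were called, without the day 1 arrays numbered 2 or the day 4 arrays numbered 1 or 2 there were 5, and 7 without the day 1 arrays numbered 1 or 3. Of the 14 genes, 2 had a mean above the median of all values in the Gr1-positive cells of day 1 and 12 in those of day 4. Their part in the shifts of other genes was not tested.

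**Figure D3:**
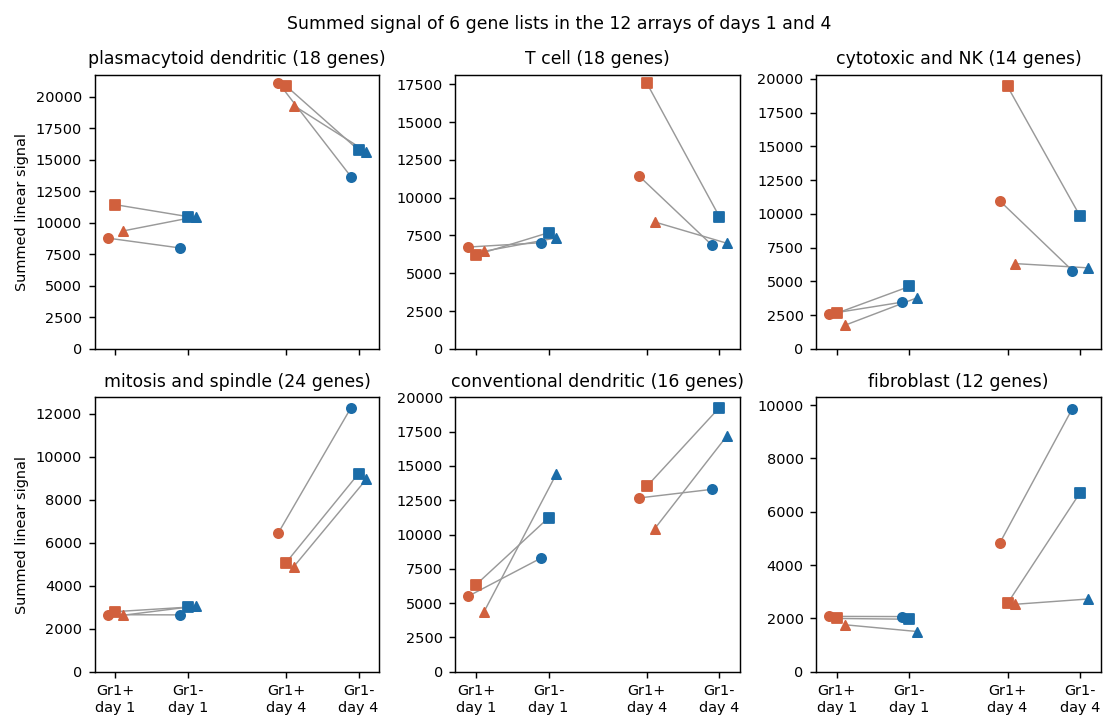
Summed linear signal (vertical axis) of 6 gene lists in Gr1-positive (orange) and Gr1-negative (blue) cells of days 1 and 4. Circles, squares and triangles are replicates 1, 2 and 3, and grey lines join arrays of the same number and day: at day 4 the Gr1-positive array is higher in every pair for the plasmacytoid, T cell and cytotoxic lists and the Gr1-negative array for the mitosis, conventional dendritic and fibroblast lists.

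Differences that vanished lay mostly on the side of the Gr1-negative cells at day 1, 40 of 49. A similar share of all differences called at day 1 lay on that side, 598 of 747. Among those that vanished were genes of conventional dendritic cells. Of 16 measured genes of these cells 4 shifted toward the Gr1-positive cells and none the other way, with a median of -0.41. The Gr1-negative cells had the higher level in 11 of the 16 at day 1 and in 5 at day 4 (3% and 2.62% of all genes). Cd7, a surface protein of T cells and dendritic precursors, had 10.24, 10.21 and 11.08 against 8.33, 8.42 and 7.49 at day 1 and 10.17, 11.36 and 10.85 against 11.12, 11.28 and 10.54 at day 4. The Gr1-negative cells kept their level while the Gr1-positive cells came up to it, with a shift of -2.62 ± 0.41 (adjusted p = 0.00871, and 0.0871 without the pairing). Kmo, an enzyme of tryptophan breakdown, had 8.59, 9.20 and 10.04 against 6.81, 7.10 and 7.06 at day 1 and 9.78, 10.56 and 10.40 against 10.02, 9.97 and 9.46 at day 4 (shift -1.86 ± 0.31, adjusted p = 0.0124, and 0.165 without the pairing).

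Cd209a and Mgl2, lectin genes of dendritic cells and macrophages, kept a smaller difference. Cd209a had 10.05, 10.79 and 11.60 against 7.89, 7.25 and 8.44 at day 1 and 10.98, 11.85 and 11.74 against 10.43, 11.08 and 10.62 at day 4. The gap between the subsets narrowed from 2.96 to 0.82, a shift of -2.14 ± 0.28 (adjusted p = 0.00299, and 0.528 without the pairing). Mgl2 shifted by -1.06 ± 0.16 (adjusted p = 0.00605, and 0.807 without the pairing). Cd209d, a relative of Cd209a, went further and reversed. It had 8.76, 9.73 and 9.88 against 7.60, 7.50 and 6.36 at day 1 and 9.41, 10.16 and 8.47 against 11.10, 10.98 and 9.97 at day 4. The subsets were apart at day 1 and overlapped at day 4, though the Gr1-positive array was the higher of each pair. This was the largest shift of all called genes, -3.64 ± 0.44 (adjusted p = 0.00178, and 0.0342 without the pairing). Probe sets of near-identical relatives, such as the Cd209, Klr, Ly6, Gimap and H2 genes, can hold signal of several members.

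Among the lectin-like receptors of natural killer cells, 2 of 12 measured genes shifted toward the Gr1-positive cells and none the other way, with a median of -0.72. Klrd1, which encodes CD94, had 9.50, 9.66 and 10.54 against 6.96, 6.18 and 6.25 at day 1 and 9.14, 10.32 and 10.06 against 8.74, 9.34 and 7.99 at day 4. It is classed as vanishing because its day 4 difference of 1.15 missed the threshold (adjusted p = 0.056). The shift was -2.29 ± 0.42 (adjusted p = 0.0243, and 0.195 without the pairing), and the call was lost without the day 1 arrays numbered 2 or 3 and without the day 4 arrays numbered 1 or 2. Klrc1, whose protein pairs with CD94, reversed from 0.97 to -1.34 (shift -2.31 ± 0.33, adjusted p = 0.00554, and 0.487 without the pairing). Klrc2, a relative of Klrc1 that stands in no list and was picked after its values were seen, appeared on the Gr1-positive side (shift -0.87 ± 0.18, adjusted p = 0.0432, and 0.529 without the pairing). Cst7, cystatin F, an inhibitor of lysosomal proteases, went from 9.06, 9.59 and 10.09 against 7.15, 7.75 and 7.71 to 8.90, 9.15 and 8.62 against 8.92, 9.72 and 8.54. The subsets overlapped only at day 4, with a shift of -2.21 ± 0.23 (adjusted p = 0.000714, and 0.0342 without the pairing). Cd72, a lectin-like receptor of B cells and myeloid cells, narrowed from 1.93 to 0.16 (shift -1.77 ± 0.22, adjusted p = 0.00245, and 0.295 without the pairing).

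A smaller set of genes was higher in Gr1-positive cells at day 1 and had no called difference at day 4. Mgst1, a glutathione transferase high in inflammatory monocytes, had 8.41, 9.30 and 9.40 in Gr1-negative and 10.53, 10.90 and 10.50 in Gr1-positive cells of day 1. Its day 4 values were 10.71, 10.45 and 10.16 against 10.75, 10.39 and 10.10. The Gr1-negative cells came up to the level of the others, with a shift of 1.63 ± 0.20 (adjusted p = 0.0017, and 0.195 without the pairing). It was the only called gene of 13 monocyte genes (list median 0.11). Il18, a cytokine, shifted by 1.03 ± 0.18 (adjusted p = 0.0203), Cyp39a1, an oxysterol hydroxylase, by 1.20 ± 0.19 (adjusted p = 0.00986), and the acute phase genes Lbp and Saa3 by 1.45 ± 0.27 (adjusted p = 0.0222) and 1.07 ± 0.17 (adjusted p = 0.0101). Without the pairing the values were 0.49 for Il18, 0.0351 for Cyp39a1, 0.179 for Lbp and 0.978 for Saa3. Saa3 is classed as vanishing because its day 4 difference of -0.45 missed the threshold (limma adjusted p = 0.0709). Its day 4 pair differences were still -0.72, -0.26 and -0.36.

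Il6, an inflammatory cytokine, was the largest reversal toward the Gr1-negative cells. It had 9.05, 9.24 and 8.71 against 10.72, 9.93 and 8.997 at day 1 and 6.93, 7.53 and 7.15 against 6.25, 6.73 and 5.91 at day 4. The subsets overlapped at day 1, though the Gr1-positive array was the higher of each pair, and not at day 4. Il6 fell in both subsets and fell further in the Gr1-positive cells, with a shift of 1.79 ± 0.28 (adjusted p = 0.00871). The value was 0.295 without the pairing and 0.0501 with the pair as a random term. It was the only called gene of 22 inflammatory cytokines and chemokines, whose median was 0.02. Cdkn3, a phosphatase of cyclin-dependent kinases, had 6.79, 7.33 and 7.21 against 7.76, 7.92 and 7.42 at day 1 and 8.29, 8.13 and 7.94 against 7.56, 7.47 and 7.29 at day 4. The subsets changed places without overlap, and the shift was 1.26 ± 0.17 (adjusted p = 0.00358, and 0.0372 without the pairing). Hmgn5, a nucleosome-binding protein, reversed with 1.42 ± 0.17 (adjusted p = 0.00164), Fkbp7, a protein-folding enzyme of the endoplasmic reticulum, with 1.16 ± 0.19 (adjusted p = 0.0103), and Hnmt, which inactivates histamine, with 1.10 ± 0.16 (adjusted p = 0.00579). None of these 3 was called without the pairing (adjusted p = 0.214, 0.522 and 0.385).

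Other lists held at most 1 called gene each. Of 22 resident-type macrophage genes 16 had negative shifts (list median -0.33). In 6 the day 4 pair differences lay below those of day 1 (9.22% of all genes), but the only called gene moved the other way. This was Gpr34, a lysophospholipid receptor, which had 9.12, 8.35 and 8.97 against 8.49, 7.00 and 7.45 at day 4, after values of 5.17 to 5.70 at day 1. Its shift was 1.17 ± 0.21 (adjusted p = 0.0206, and 0.761 without the pairing), and it lost its call without the day 1 arrays numbered 1 or 3 and the day 4 arrays numbered 2 or 3. In 5 further lists 1 gene was called, toward the Gr1-positive cells in each: Mgl2 of 15 alternative activation genes (median -0.12), Gdf3 of 12 repair growth factors (-0.20), Pparg of 18 lipid genes (-0.05), Hspa1a of 17 immediate early and stress genes (-0.06) and Kdr of 8 endothelial genes (-0.04). Gdf3, a growth factor of repair macrophages, narrowed from 0.49 to -0.14 (shift -0.63 ± 0.13, adjusted p = 0.043). Pparg, the nuclear receptor of lipid metabolism, narrowed from 0.52 to -0.12 (shift -0.64 ± 0.12, adjusted p = 0.0237), and the heat shock gene Hspa1a from 0.74 to -0.08 (shift -0.82 ± 0.13, adjusted p = 0.00871). Without the pairing the values were 0.978, 0.526 and 0.621, and Gdf3 and Pparg each lost their call in 5 of the 6 fits without the arrays of 1 day and number, the exception being the day 1 arrays numbered 3.

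No shift was called by limma in 10 lists, with or without the pairing, though 30 of their 141 members had an unadjusted p under 0.05 (10.7% of all genes). Besides the sort markers these were 18 neutrophil genes (median 0.20), 15 of mast cells, basophils and eosinophils (-0.13), 8 of B and plasma cells (-0.10), 13 of muscle (0.07) and 9 of class II antigen presentation (-0.34). The others were 16 genes of costimulation (0.15), 22 interferon-stimulated genes (0.04), 23 of glycolysis and hypoxia (0.05) and 17 matrix proteases and inhibitors (0.10). The values largest in size in them were 1.40 ± 0.33 for Mmp9, a gelatinase (adjusted p = 0.083), 1.08 ± 0.45 for Lcn2, an iron-trapping protein of neutrophils (adjusted p = 0.396), 0.87 ± 0.19 for Mmp8, a collagenase (adjusted p = 0.06), and -0.87 ± 0.23 for Ciita, the regulator of class II genes (adjusted p = 0.13). In the class II list 7 of 9 shifts were negative, and in 4 the day 4 pair differences lay below those of day 1 (9.22% of all genes). Summed neutrophil signals were 8042 to 9653 against 11797 to 15584 at day 1 and 4886 to 6076 against 4651 to 6993 at day 4, so that the subsets overlapped only at day 4. Of the 175 called genes 58 stood in at least 1 of the 28 lists and 117 in none.

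**Figure D4:**
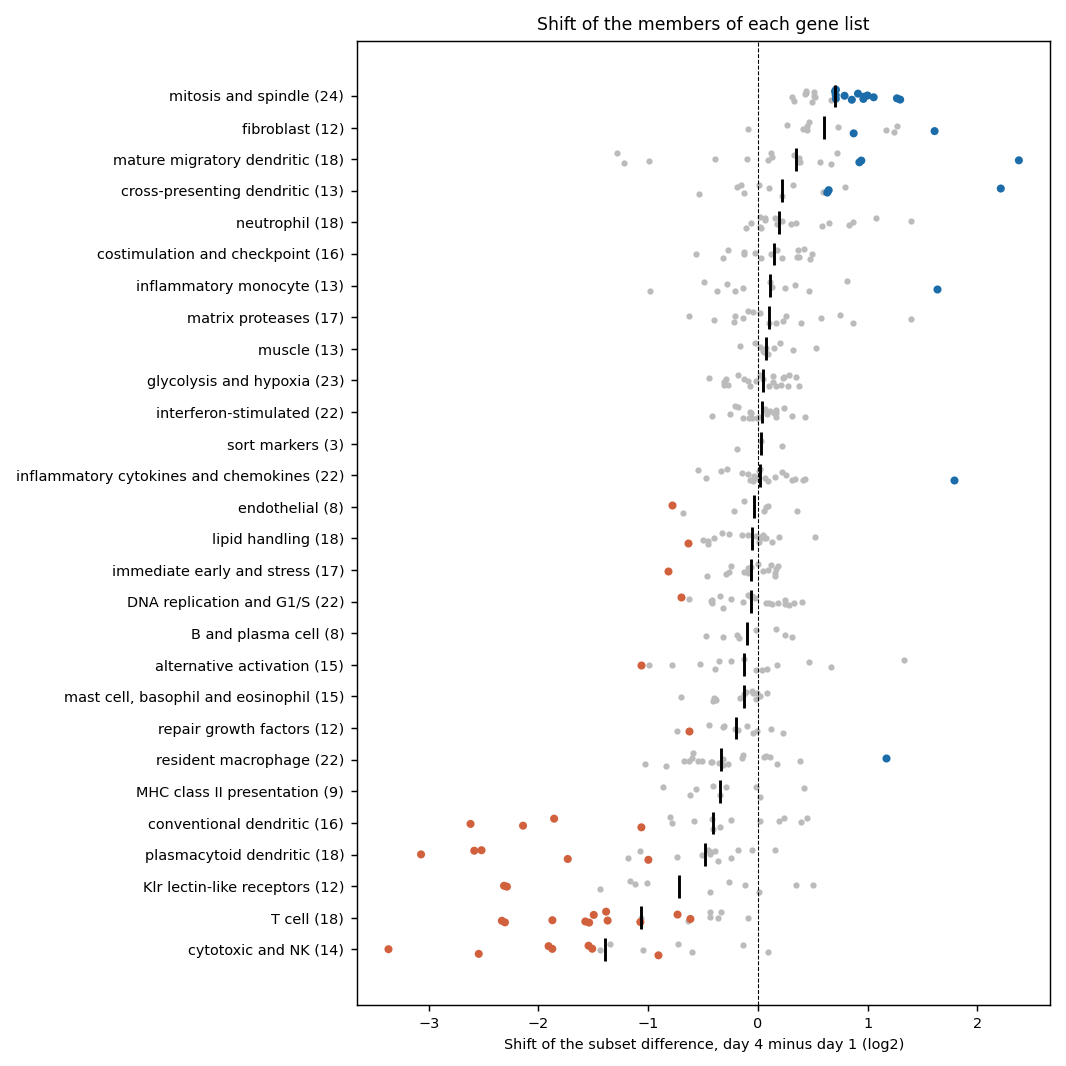
Shift of the subset difference (horizontal axis, log2, day 4 minus day 1) of each measured member of 28 gene lists (rows, with the number of members). Blue and orange points are called shifts toward the Gr1-negative and Gr1-positive cells, grey points are not called, and black bars are list medians, from 0.71 for mitosis to -1.39 for cytotoxic genes.

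The shifts were also read from each subset's own step from day 1 to day 4, which uses the same arrays and is given as a description, from the fit without the pairing. Of the 71 genes that moved toward the Gr1-negative cells, 63 had a called rise in these cells and 31 in the Gr1-positive cells, where 15.5% and 16.2% of all genes rose. Levels rose in both subsets for 54 of them, and rose in Gr1-negative and fell in Gr1-positive cells for 14. Of the 104 genes that moved toward the Gr1-positive cells, 92 had a called rise in these cells, 17 had one in the Gr1-negative cells and 11 a called fall there (8.67% of all genes fell). Levels rose in both subsets for 66, and rose in Gr1-positive and fell in Gr1-negative cells for 35. The step was larger in size in the Gr1-positive cells for 92 of the 104 and for 7 of the 71.

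Day 2 is no term of the shift, but its arrays entered the fit and so the estimate of the spread, and with the 12 arrays of days 1 and 4 alone 139 genes were called. The day 2 difference of the called genes, given as a description, was closer to that of day 1 than to that of day 4 in 44 of the 71 and 89 of the 104. The called genes were picked by their gap between days 1 and 4, and the share among all genes was not counted. No timing is read from these counts. Cst7 kept a day 2 pair difference of 1.91, 1.01 and 1.38 after 1.92, 1.83 and 2.38 at day 1, and had -0.02, -0.56 and 0.07 at day 4. Cenpe was midway at day 2, with 0.59, 0.80 and 0.46 after -0.12, 0.04 and -0.05 and before 1.20, 1.16 and 1.32. Siglech had 0.07, -0.35 and -0.09 at day 2 and -2.72, -1.53 and -1.57 at day 4.

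**Figure D5:**
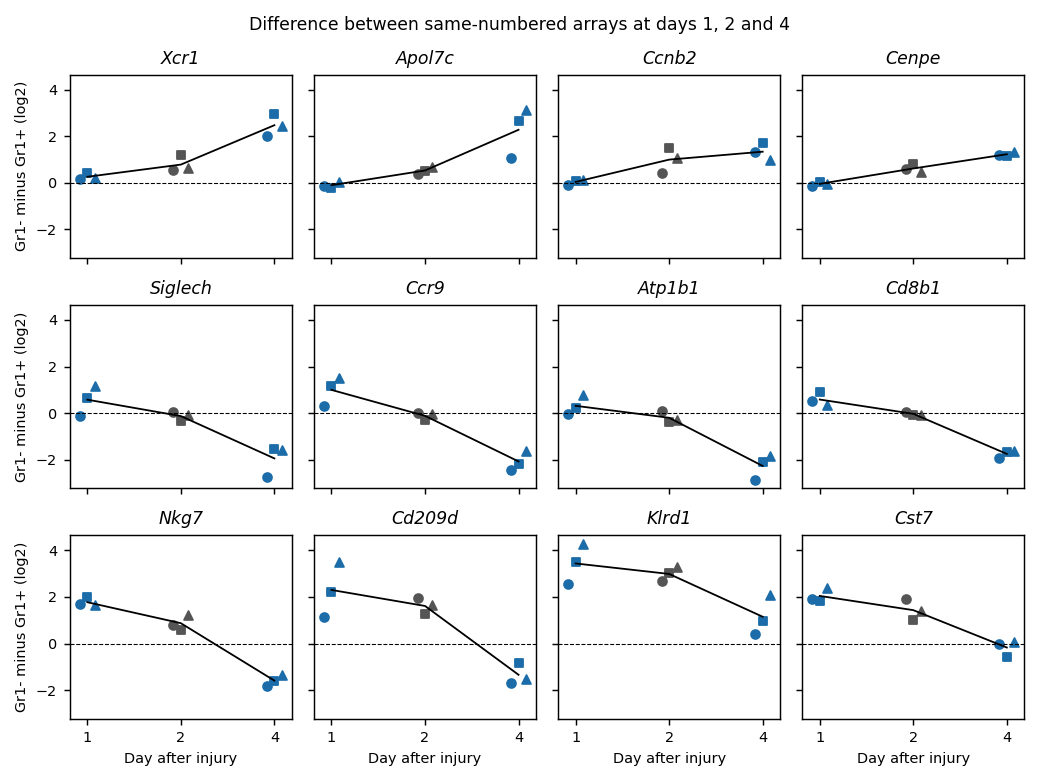
Difference between same-numbered arrays, Gr1-negative minus Gr1-positive (vertical axis, log2), at days 1, 2 and 4 (horizontal axis) for 12 called genes. Circles, squares and triangles are replicates 1, 2 and 3, black lines join the means, and day 2 is grey because its difference is no term of the shift. In each panel the 3 points of day 4 lie outside the range of the 3 points of day 1, which was a condition for naming these genes.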

How the data were processed

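The values are the deposited log2 signals of 22 Affymetrix arrays, summarized with RMA per the submitters' processing notes, which give no version. Groups and replicate numbers came from the sample titles. Of 35556 probe sets, 21789 name 1 gene in the platform's gene table; 1621 that name several and 12146 that name none were left out. Entrez numbers matched 21698 of them to mouse names (GRCm38.p6 RefSeq), and 999 genes had several probe sets, of which that of highest mean signal was used, so that 19938 genes were tested. Gene names can be out of date.

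The model was fitted in R 4.3.3 by limma 3.58.1, with statmod 1.5.0 for the random block. Over all 22 arrays it had a fixed block for each day and replicate number and 1 subset difference per day. Days 1, 2 and 4 share 1 estimate of the spread, to which the arrays of the last day add nothing in this fit. Variances were moderated, tests were two-sided and p-values had Benjamini-Hochberg adjustment over all genes. The fits with no block or a random block had 1 mean per day and subset instead. Steps from day 1 to 4 came from the fit without the block. Same-numbered arrays of a day deviated together: their correlations were 0.098, 0.381 and 0.238 at day 1, 0.646, 0.412 and 0.487 at day 2 and 0.637, 0.565 and 0.501 at day 4, and all 9 matched their own number best. The labels do not say what a shared number stands for, and 1 pair lies under 0.1, so the fit without pairs is given beside it. No array is a copy of another, as any 2 of them differed by a root mean square of at least 0.2329 over all probe sets. Slide and scan batches are not given in the sources used here. The fit was tested on simulated data. Figures used matplotlib 3.10.9 in Python 3.11.15.

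Named genes are the 12 largest called shifts of each direction with pair differences apart between the days, up to 5 per direction in each class, the sort markers, and of each list the up to 4 largest called shifts or, with none called, the 2 largest values. The comparison, the lists and this rule were chosen with earlier results of these data known.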

Additional observations from a re-analysis of the deposited data

Results flagged for a closer look

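The subset difference of 53 named genes differed between day 1 and day 4 by the limma test of the shift itself (adjusted p under 0.05 with the pairing). For each gene the value is the shift on the log2 scale, positive toward the Gr1-negative cells. No explanation was weighed.

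Differences that appeared on the Gr1-negative side were those of Gpr141b (2.45), Apol7c (2.38), Xcr1 (2.21), Postn (1.61), Mest, an imprinted gene (1.49), H2-M2 (1.40), Ccnb2 (1.30), Cenpe (1.27), Gpr34 (1.17), Kif20a (1.06), Kif23 (1.00), Fap (0.87), Itgae (0.65) and Snx22 (0.63), and that of Il12b grew (0.93). On the Gr1-positive side they were those of Atp1b1 (-2.58), Siglech (-2.52), Mctp2, a membrane protein with calcium-binding domains (-2.02), Cd3e (-1.87), Ly6d (-1.73) and Cd8a (-1.57). A difference that appeared was not called at day 1 but could be present there. Cd8a and Itgae, for example, had day 1 differences of 0.38 and 0.34 (limma adjusted p = 0.13 and 0.0723), with the Gr1-negative array higher in each pair.

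Differences on the Gr1-positive side that vanished were those of Mgst1 (1.63), Lbp (1.45), Cyp39a1 (1.20), Saa3 (1.07), Il18 (1.03) and Il15 (0.94). On the Gr1-negative side those of Cd7 (-2.62), Klrd1 (-2.29), Cst7 (-2.21), Kmo (-1.86), Cd72 (-1.77), Hspa1a (-0.82), Kdr (-0.79), Mcm2 (-0.70), Pparg (-0.64) and Gdf3 (-0.63) vanished, and those of Cd209a (-2.14) and Mgl2 (-1.06) shrank.

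Reversals toward the Gr1-negative cells were Il6 (1.79), Hmgn5 (1.42), Cdkn3 (1.26), Fkbp7 (1.16) and Hnmt (1.10). Reversals toward the Gr1-positive cells were Cd209d (-3.64), Nkg7 (-3.37), Ccr9 (-3.07), Gzmb (-2.54), Cd8b1 (-2.33), Cd3g (-2.31), Klrc1 (-2.31), Ctsw (-1.91) and Il2rb (-1.87).

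Of these genes Mest (adjusted p = 0.043), Kdr, a receptor of endothelial cells (0.0246), and Mctp2 (0.00596) had limma values of 0.962, 0.831 and 0.109 without the pairing.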

How the results depend on the processing

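None of the 53 named called shifts reversed under any alternative. Without the replicate block the counts were 19 genes with a shift, 171 that differ at day 1 and 143 at day 4, with 12 appearing, 6 vanishing and 0 reversing, and 39 of the 53 named genes lost their call. With the pair as a random block they were 91, 472, 447, 49, 32 and 4, and 21 named genes lost it. Array quality weights gave 594, 2049, 1990, 231, 257 and 60. A variance prior with trend and robust steps gave 264 shifts and 99 vanishing genes, and genes at or above the median signal gave 92 vanishing. The 12 arrays of days 1 and 4 alone gave 11 reversing genes. Classes set by size (at least 1 at one day, under 0.5 at the other) gave 37 appearing and 14 vanishing. Quantile normalization again and the mean of all probe sets kept each count within 1.5 times. The cause of these moves was not tested.

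Leaving out arrays, with or without the block, gave 8 to 353 shifts, 72 to 801 genes at day 1, 65 to 1279 at day 4, 6 to 139 appearing, 2 to 174 vanishing and 0 to 24 reversing. Of the named genes 32 kept their call in all 6 fits without the arrays of 1 day and number, and 21 lost it in at least 1. Lbp and Fkbp7 lost it without either the day 4 arrays numbered 1 or 2, Fkbp7 also without day 1 number 2, Hspa1a without day 4 number 1 or 2, Cyp39a1 without day 4 number 1 and Saa3 without day 4 number 2. Mest and Il18 lost it without day 1 number 1 or 2 or day 4 number 1, Mest also without day 4 number 2 and Il18 without day 4 number 3, and Kdr without day 1 number 2 or 3 or day 4 number 1 or 2. Adgre1, not called, was -0.05 with array quality weights and -0.08 to 0.09 with arrays left out. Another background correction was not run, since probe values were not used here.

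With 3 arrays a group the precision is limited, and array signals near background understate differences.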

Other observations

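The Gimap genes, a cluster of GTPases that act in lymphocyte survival, stand in none of the lists and were picked after their values were seen. Of 8 measured, 5 had a called shift toward the Gr1-positive cells and none the other way (0.878% of all genes were called), with a median of -1.13 and a range of -2.15 to -0.43. They lie side by side and are near-identical in part, so that they are not independent.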
